A study of Mus musculus with 6 samples.

Results

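Heme breakdown and heme transport were followed through 8 genes in splenic erythroid cells of mice with sickle cell disease that had or lacked Nrf2. The genes were chosen by name. They were the heme oxygenases Hmox1 and Hmox2, the biliverdin reductases Blvra and Blvrb, and the heme exporters Flvcr1 and Abcg2. Flvcr2, a relative of Flvcr1, and the heme transporter Slc48a1 completed the set. The genes are 8 of 35178 gene symbols in the count table. Of these, 6 stand there under the names used here, and Flvcr1 and Flvcr2 stand under their older symbols Mfsd7b and Mfsd7c, matched through RefSeq synonyms. All 8 passed the filter on low counts. RNA sequencing was done on Ter119+ cells of the spleen, Ter119 being a surface antigen of red cell precursors and red cells, from animals of 2 to 3 months. The wild type (WT) and the Nrf2 knockout (KO) group had 3 libraries each, on a mixed B6;129P2 background, and both groups had sickle cell disease. The deleted part of the Nrf2 gene, the sickle model and any pooling of animals are not given in the labels.

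Heme oxygenases open the heme ring with electrons from cytochrome P450 reductase and release iron, carbon monoxide and biliverdin, which biliverdin reductases turn into bilirubin. Hmox1 is the inducible enzyme and Hmox2 the constitutive one. Nrf2, encoded by Nfe2l2, binds antioxidant response elements together with small Maf proteins, and Bach1 represses the same elements until heme removes it; Hmox1 is the textbook gene under both. Flvcr1 and Abcg2 are known for carrying heme or porphyrins out of erythroid precursors, and Slc48a1 moves heme out of lysosomes after red cells have been engulfed, mainly in macrophages. Sickle red cells break down early, so heme handling is a known burden in the disease.

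Library totals ran from 16420054 to 21790983 reads. The erythroid label was borne out by Slc4a1 (band 3) and Alas2 (the first enzyme of erythroid heme synthesis), at 11486 to 16124 and 2899.6 to 6575 CPM (reads of a gene per 1000000 reads of the scaled library). The mouse globins Hba-a1, Hbb-bs and Hbb-bt had 0 to 10 reads in every library, while Hba-a2 had 350 to 974 reads (17.2 to 60.2 CPM). Both groups held Nfe2l2 transcripts, with a WT mean of 81.6 ± 14.9 CPM and a KO mean of 69.6 ± 6.75 CPM (SD, n = 3; adjusted p = 0.556 by edgeR). Nqo1, a quinone oxidoreductase and classical Nrf2 target, fell from 62.0 ± 17.0 to 14.6 ± 3.40 CPM (adjusted p = 0.0301 by edgeR). Its log2 change was -2.09, and the call was lost without WT replicate 2 (log2 -2.18, adjusted p = 0.154 by edgeR), without KO replicate 2 (log2 -2.08, adjusted p = 0.0865) and with limma-voom (log2 -2.07, adjusted p = 0.0590). For KO replicate 3 alone against WT the log2 change of Nqo1 was -1.77. The libraries also differed in sex-linked transcripts. On library totals, Xist ran from 784 to 1169 CPM in the WT libraries and reached 917 CPM in the third KO library, whereas the first KO library had 15.8 CPM and the second 0.702 CPM. Genes of the Y chromosome summed to 212 CPM in the first KO library, 272 CPM in the second and 6.91 CPM in the third. The WT libraries had 0.289 to 1.20 CPM. The change of each gene is therefore also given for KO replicate 3 alone and without it. The part of sex in the results was not tested.

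None of the 8 genes passed the threshold of an adjusted p of 0.05 over all 13721 genes tested by edgeR, where 0.0219% of all genes did. At an unadjusted p under 0.05, 5 were lower in KO (Hmox1, Hmox2, Blvrb, Slc48a1 and Abcg2) and 1 was higher (Blvra), where 5.98% and 6.25% of all genes were. In the same 5 genes every KO library lay below every WT library, as in 7.91% of all genes, and in Blvra every KO library lay above, as in 10.3%. The median log2 change of the 8 was -0.44, beside 0.02 over all genes tested. DESeq2 called Hmox1, Blvrb and Abcg2, all lower (adjusted p = 0.00789, 0.00336 and 0.00163), where it called 2.22% of all genes lower and 2.89% in either direction, and gave no adjusted p for Hmox2, Flvcr1 and Flvcr2. Without the filter on low counts edgeR called Hmox2, Blvrb and Abcg2, all lower, where it called 1.05% of all genes in either direction. The reads behind these values ran from 9358 to 17813 a library for Hmox1, from 18227 to 31100 for Blvrb, from 8246 to 11619 for Slc48a1 and from 3992 to 7054 for Abcg2, but only from 141 to 345 for Hmox2 and from 212 to 369 for Flvcr1. The genes were chosen with earlier results of these data known, so these counts are a description.

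**Figure D1:**
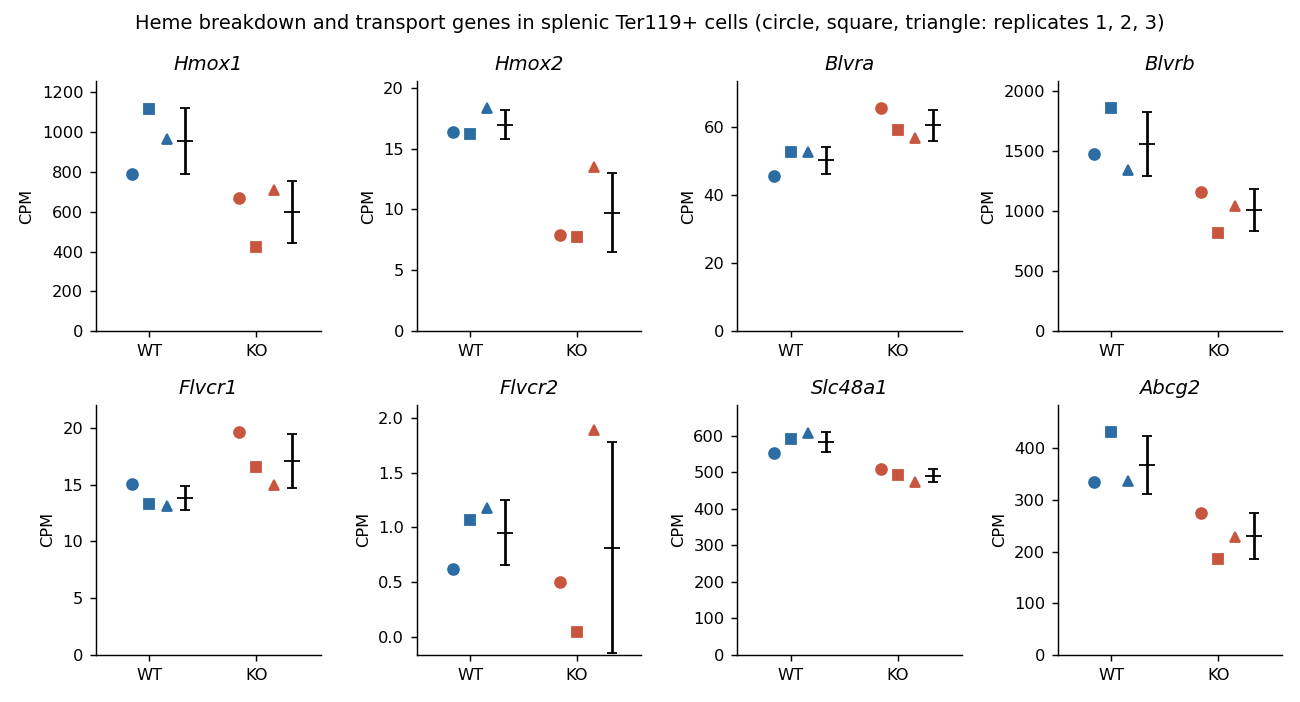
Level of each of the 8 genes in CPM (y axis) in the 3 WT and 3 KO libraries, with the mean and SD of each group as a bar beside the points. KO libraries lie below all WT libraries in Hmox1, Hmox2, Blvrb, Slc48a1 and Abcg2 and above them in Blvra, and the groups overlap in Flvcr1 and Flvcr2.

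Heme oxygenase transcripts were lower in every KO library for both enzymes, without passing the threshold. Hmox1 (ENSMUSG00000005413.8; mm10 chromosome 8, 75093621 to 75100589, plus strand, 5 merged exons) had 787, 1117 and 965 CPM in WT replicates 1, 2 and 3 and 668, 420.4 and 707 CPM in KO replicates 1, 2 and 3. All KO values lay under the lowest WT value, and KO replicate 2 was lowest. The log2 change was -0.68 (SE 0.203, unadjusted p = 0.00866, adjusted p = 0.241 by edgeR; exact two-sided permutation p = 0.1, the smallest that 3 against 3 libraries allow). Leaving out KO replicate 2 gave -0.49 and leaving out KO replicate 3 gave -0.82. The latter library by itself stood at -0.44 against WT.

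Hmox2 (ENSMUSG00000004070.15; chromosome 16, 4726361 to 4766742, plus strand) had 16.4, 16.2 and 18.3 CPM in WT and 7.93, 7.77 and 13.5 CPM in KO. The WT libraries were close together, while KO replicate 3 stood nearer to WT than to KO replicates 1 and 2. KO replicates 1 and 2 are also the libraries with low Xist. KO replicate 3 was the KO library nearest to WT in Hmox1, Blvra and Flvcr1 too, but not in Blvrb, Slc48a1 or Abcg2. The part of sex in these changes was not tested. The log2 change of Hmox2 was -0.80 (SE 0.228, adjusted p = 0.199 by edgeR). It was -1.12 without KO replicate 3 and -0.33 for that library alone. The exons of Hmox2 share 892 bases with Cdip1 on the opposite strand, and the kit does not mark strand, so reads there cannot be told apart. Cdip1 itself averaged 12.1 ± 2.87 CPM in WT against 14.3 ± 0.672 CPM in KO (log2 0.25, adjusted p = 0.676 by edgeR).

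The biliverdin reductases lay on opposite sides of no change. Blvrb (ENSMUSG00000040466.16; chromosome 7, 27447978 to 27466144, plus strand), which also reduces flavins and is abundant in red cells, had 1476, 1859.9 and 1341 CPM in WT and 1163, 819 and 1044 CPM in KO. The groups did not overlap, and KO replicate 2 was again lowest. The log2 change was -0.63 (SE 0.158, unadjusted p = 0.00232, adjusted p = 0.163 by edgeR), and it was -0.66 without KO replicate 3 and -0.58 for that library alone. Blvra (ENSMUSG00000001999.15; chromosome 2, 127070665 to 127097084, plus strand), the reductase that acts on the main biliverdin of adult heme, had 45.7, 52.6 and 52.6 CPM in WT and 65.6, 59.1 and 56.7 CPM in KO. Every KO library was above every WT library, by a narrow gap. The log2 change was 0.27 (SE 0.115, unadjusted p = 0.0407, adjusted p = 0.384 by edgeR). It was 0.30 without KO replicate 3 and 0.17 for that library alone.

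The promoters of the reductases are shown because these genes lay on opposite sides. Each window runs from 250 bases before to 50 bases after a start (RefSeq, GRCm38.p6). Capitals mark matches on either strand to TGANNNNGC, a loose form of the antioxidant response element core. The first, of Blvrb, is chr7:27447728-27448027 on the plus strand, and the second, of Blvra, is chr2:127070407-127070706 on the plus strand.
Blvrb: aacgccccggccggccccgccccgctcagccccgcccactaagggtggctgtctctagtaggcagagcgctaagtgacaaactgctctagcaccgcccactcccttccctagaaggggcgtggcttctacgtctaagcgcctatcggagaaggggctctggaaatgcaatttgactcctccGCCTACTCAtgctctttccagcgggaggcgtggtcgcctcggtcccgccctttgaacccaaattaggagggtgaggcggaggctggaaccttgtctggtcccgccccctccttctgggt
Blvra: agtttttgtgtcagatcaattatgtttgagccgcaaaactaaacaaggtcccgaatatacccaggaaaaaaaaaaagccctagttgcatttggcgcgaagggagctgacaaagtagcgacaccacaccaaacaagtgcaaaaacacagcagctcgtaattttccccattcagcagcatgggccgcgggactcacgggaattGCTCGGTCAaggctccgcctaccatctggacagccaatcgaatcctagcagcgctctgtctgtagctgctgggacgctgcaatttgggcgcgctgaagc
This Blvrb window, of the more upstream of 2 starts, held 1 match, GCCTACTCA on the opposite strand, with its leftmost base at -69, and the Blvra window held 1, GCTCGGTCA, also on the opposite strand, at -49. The window of the second Blvrb start held 2 matches, TGATAGAGC at -196 and TGAACTGGC at -19. This loose form occurs in 41.3% of all 32851 windows of this length, so a match is common and does not by itself mark an antioxidant response element. CCNCNCCC, the core bound by KLF and SP factors, was found 6 times in the first Blvrb window, on either strand and at any overlap, and 0 times in the second Blvrb window and in the Blvra window. It was found 3 times in the Flvcr1 window and 2 times in the Abcg2 window shown further on. The other Abcg2 windows held it 4 times and 1 time, and the Flvcr2 window 7 times. The downstream Hmox2 windows held it 1 time and 6 times. It occurs in 49.5% of all windows. No window of either reductase held GATAA, which occurs in 25.4% of all windows.

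Neither the exporters nor Flvcr2 passed the threshold. The groups did not overlap in Abcg2 and overlapped in Flvcr1 and Flvcr2. Abcg2 (ENSMUSG00000029802.13; chromosome 6, 58584523 to 58695676, plus strand), an ATP-driven transporter of porphyrins and drugs, had 335, 433 and 337 CPM in WT and 275, 186 and 229 CPM in KO. The groups did not overlap. KO over WT gave a log2 change of -0.68 (SE 0.157, unadjusted p = 0.00130, adjusted p = 0.144 by edgeR), the smallest p among the 8 genes. It was -0.68 without KO replicate 3 and -0.69 for that library alone. Flvcr1 (ENSMUSG00000066595.9; chromosome 1, 191005847 to 191026158, minus strand) had 15.0, 13.3 and 13.2 CPM in WT and 19.7, 16.6 and 15.0 CPM in KO. KO replicates 1 and 2 were above all WT libraries and KO replicate 3 was just under WT replicate 1. KO over WT gave a log2 change of 0.30 (SE 0.168, unadjusted p = 0.0985, adjusted p = 0.509 by edgeR), with 0.38 without KO replicate 3 and 0.11 for that library alone. Its exons share 809 bases with the antisense gene A230020J21Rik, for which no read was counted in any library. Because the kit does not mark strand, this count does not show that A230020J21Rik was silent.

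Flvcr2 (ENSMUSG00000034258.4; chromosome 12, 85746539 to 85813585, plus strand), a relative of Flvcr1 known for choline transport, was near the limit of detection. It had 13, 17 and 19 reads in WT and 9, 1 and 33 reads in KO. KO replicates 2 and 3 were the lowest and the highest of all libraries. KO over WT gave a log2 change of -0.24 (SE 0.896, adjusted p = 0.944 by edgeR), and no difference was detected. It was -1.81 without KO replicate 3, and it turned to 0.32 without KO replicate 2 and to 0.99 for KO replicate 3 alone.

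The promoters of Abcg2 and Flvcr1 are shown as the exporters with opposite signs that hold a match to TGANNNNGC. The Abcg2 window, of the most upstream of 3 starts, is chr6:58584283-58584582 on the plus strand, and the Flvcr1 window is chr1:191026141-191026440 on the minus strand, written in the direction of the gene.
Abcg2: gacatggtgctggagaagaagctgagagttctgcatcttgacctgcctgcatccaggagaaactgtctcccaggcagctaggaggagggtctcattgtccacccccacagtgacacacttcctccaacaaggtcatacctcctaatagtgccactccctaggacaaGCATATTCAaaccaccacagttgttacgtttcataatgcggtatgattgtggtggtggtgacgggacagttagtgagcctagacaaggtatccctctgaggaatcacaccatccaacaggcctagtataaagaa
Flvcr1: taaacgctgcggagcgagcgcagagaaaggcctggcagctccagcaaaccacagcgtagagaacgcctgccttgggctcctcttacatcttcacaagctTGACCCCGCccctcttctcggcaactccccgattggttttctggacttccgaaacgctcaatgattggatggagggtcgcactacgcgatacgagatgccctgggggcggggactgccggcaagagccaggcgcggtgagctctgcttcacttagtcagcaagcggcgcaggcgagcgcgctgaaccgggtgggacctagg
The match in Abcg2 was GCATATTCA on the opposite strand at -84, and that in Flvcr1 was TGACCCCGC at -151. The other windows of Abcg2 held no match to TGANNNNGC, nor did the 3 windows of Hmox2 or the window of Flvcr2. The most downstream Abcg2 window held GATAA on the opposite strand at -204, and the most upstream Hmox2 window held it on the opposite strand at -31. The counts are per gene and do not tell which start was used. Windows were found for 6 of the 8 genes, all but Hmox1 and Slc48a1.

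Slc48a1 (ENSMUSG00000081534.3; chromosome 15, 97778520 to 97792692, plus strand) was the most even of the genes across libraries. It had 551, 591 and 606 CPM in WT and 508, 491 and 472 CPM in KO. The groups did not overlap, although the difference was small. In log2 terms the change was -0.25 (SE 0.0994, unadjusted p = 0.0290, adjusted p = 0.351 by edgeR). It was -0.23 without KO replicate 3 and -0.30 for that library alone. Its exons share 29 bases with Hdac7 on the opposite strand.

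**Figure D2:**
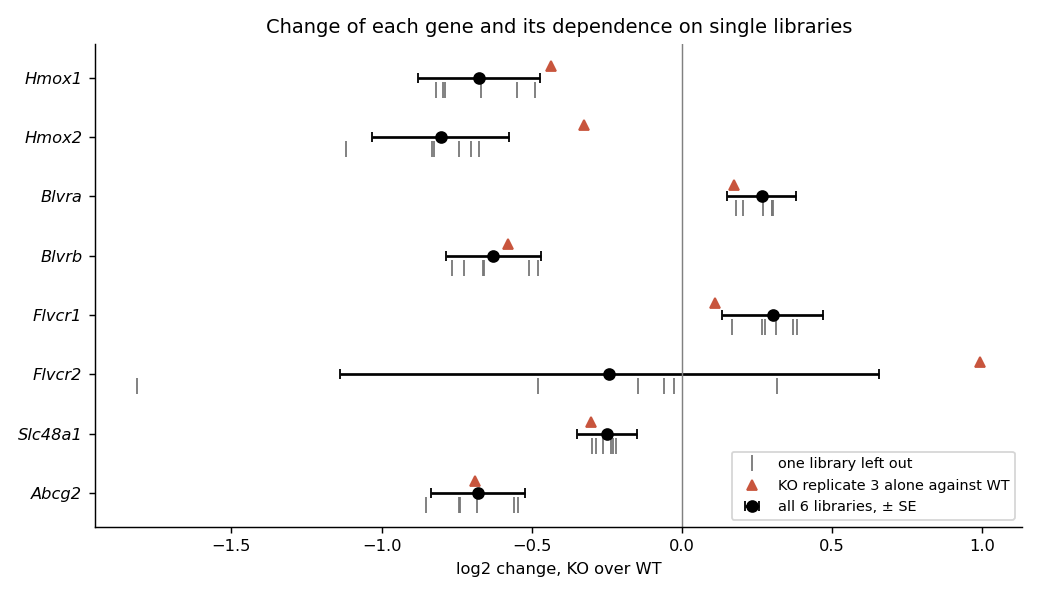
The log2 change of KO over WT (x axis) of each gene: black points with SE for all 6 libraries, grey ticks with 1 library left out, red triangles for KO replicate 3 alone against WT. Hmox2 moves from -0.80 to -0.33 for KO replicate 3 alone, Flvcr2 runs from -1.81 to 0.99, and Abcg2 stays between -0.85 and -0.55.

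Per kilobase of merged exons, Blvrb and Hmox1 were the most abundant of the 8 in WT, at 560.3 ± 96.8 and 546 ± 94.3 CPM per kilobase (SD, n = 3), and these neighbours overlapped. Slc48a1 followed at 212 ± 10.3, Abcg2 at 45.2 ± 6.86, Blvra at 20.6 ± 1.63, Hmox2 at 7.65 ± 0.540, Flvcr1 at 2.67 ± 0.203 and Flvcr2 at 0.272 ± 0.0843 CPM per kilobase. Below Hmox1, no neighbours overlapped among the WT libraries. The lengths of Hmox2 and Flvcr1 include the exon bases that they share with other genes. How reads there were counted is not given, so the levels per kilobase of both may be off. Blvrb and Hmox1 both stood at the 99.5th percentile of the 13549 tested genes with a length, Slc48a1 at the 98.4th, Abcg2 at the 92.2nd, Blvra at the 83.5th, Hmox2 at the 65.5th and Flvcr1 at the 42.1st percentile.

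The order of the mean levels was the same in KO, and 2 more pairs of neighbours overlapped. Abcg2, at 28.2 ± 5.50 CPM per kilobase, overlapped with Blvra at 24.7 ± 1.90, and Hmox2, at 4.39 ± 1.48, overlapped with Flvcr1 at 3.30 ± 0.465. The summed level of all 8 was 1395 ± 187 CPM per kilobase in WT and 944 ± 155 in KO. Hmox1 made up 39.1% ± 2.84 of this sum in WT and 35.8% ± 4.31 in KO, and Blvrb made up 40.1% ± 3.32 and 38.4% ± 1.31. Slc48a1 made up 15.3% ± 1.73 in WT and 19.3% ± 3.49 in KO, and Blvra 1.48% ± 0.141 and 2.66% ± 0.442. With the longest annotated transcript as length, Blvrb made up 52.0% and Hmox1 30.6% in WT, so the size of the gap between the pair rests on the length used.

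Ratios between genes of the same library do not depend on how libraries are scaled, and 6 pairs were compared per kilobase. The Blvrb to Blvra ratio of reads per kilobase of merged exons was 28.4, 31.1 and 22.4 in WT and 15.6, 12.2 and 16.2 in KO. All KO ratios lay below all WT ratios, and the log2 ratio was lower by a mean difference of -0.89 (exact two-sided permutation p = 0.1, or 0.3 adjusted over the 6 pairs). It was -0.74 for KO replicate 3 alone. The Abcg2 to Flvcr1 ratio was 14.1, 20.6 and 16.2 in WT and 8.87, 7.11 and 9.69 in KO, again without overlap (log2 difference -0.98, exact permutation p = 0.1, adjusted 0.3), and -0.79 for KO replicate 3 alone.

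The remaining 4 ratios overlapped between the groups. Hmox1 exceeded Hmox2 by a ratio of 60.8, 87.3 and 66.5 in WT and 106, 68.3 and 66.1 in KO, with KO replicate 1 highest (log2 difference 0.15, exact permutation p = 0.6). The exon bases that Hmox2 shares with Cdip1 bear on the size of this ratio. The Hmox1 to Blvrb ratio was 0.848, 0.954 and 1.14 in WT and 0.913, 0.816 and 1.08 in KO (log2 difference -0.07, exact permutation p = 0.7). The Slc48a1 to Hmox1 ratio was 0.446, 0.336 and 0.400 in WT and 0.483, 0.743 and 0.425 in KO, where KO replicate 2 stood apart (log2 difference 0.45, exact permutation p = 0.2). The Flvcr1 to Flvcr2 ratio followed the few Flvcr2 reads and ran from 7.41 to 15.9 in WT and from 5.28 to 167 in KO (log2 difference 1.50, exact permutation p = 0.4). An exact p of this size does not show that ratios were equal.

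**Figure D3:**
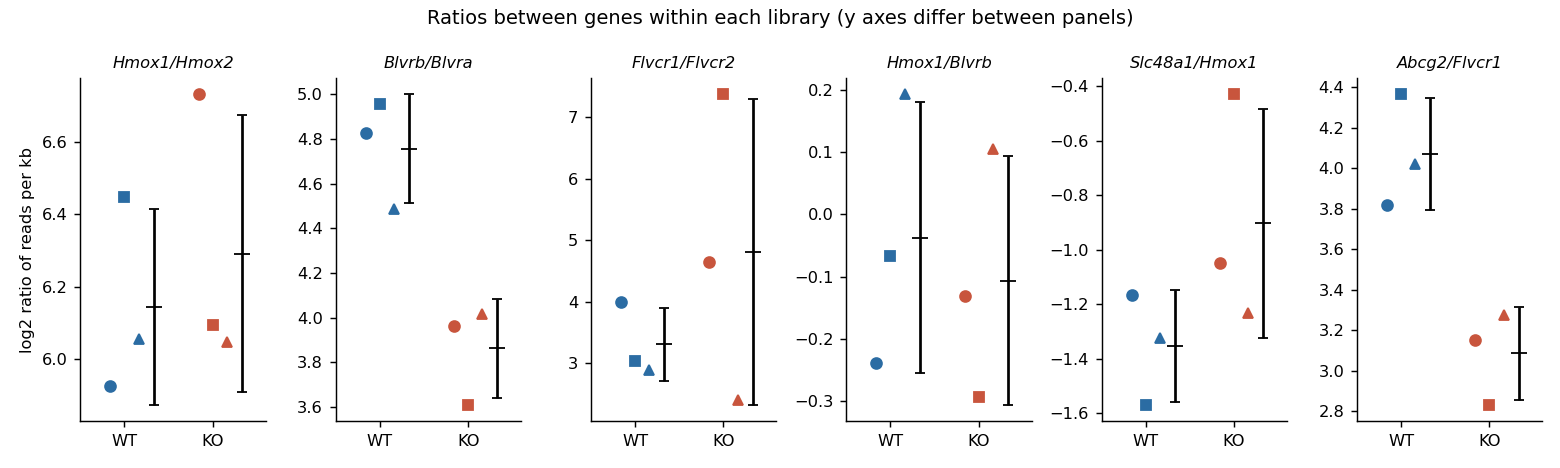
The log2 ratio of reads per kilobase between 6 pairs of genes (y axis, own scale in each panel) in each WT and KO library, with the mean and SD. The Blvrb/Blvra and Abcg2/Flvcr1 ratios are lower in every KO library than in every WT library, and the other 4 overlap.

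The erythroid markers were lower in KO beside these genes. Of the 13 with counts, 10 could be tested and all 10 had a negative log2 change (median -0.55, 0 past the threshold by edgeR). Their summed level was 32578 to 33820 CPM in WT and 22043 to 24296 CPM in KO, a log2 difference of -0.50 (exact permutation p = 0.1). Slc4a1 alone made up the largest part of that sum in every library. In bulk RNA, fewer cells of a type and less RNA per cell cannot be told apart. Set against this sum within each library, Hmox1, Hmox2, Blvrb and Abcg2 overlapped between the groups, with log2 differences of -0.20, -0.34, -0.13 and -0.18. Blvra, Flvcr1 and Slc48a1 were then higher in every KO library, by log2 differences of 0.77, 0.80 and 0.25 (exact permutation p = 0.1 each), so the sign of Slc48a1 turned. Because the sum itself had a log2 difference of -0.50, this scaling raises every gene alike. A gene without change in CPM would also turn positive. How many of all genes were higher under this scaling was not counted. This scaling was chosen after the data were seen.

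Macrophages, which express Hmox1 and Slc48a1 strongly, left transcripts in every library. All 18 macrophage markers were detected, and 17 of them had a positive log2 change (median 0.25, 0 past the threshold by edgeR). Their summed level was 2150 to 2364 CPM in WT and 2338 to 3197 CPM in KO, and the groups overlapped, with KO replicates 1 and 3 above all WT libraries. The exception was Cd163, the receptor for hemoglobin bound to haptoglobin, which averaged 41.4 ± 11.0 CPM in WT against 29.2 ± 4.50 CPM in KO. Marco had 391 CPM in KO replicate 1 and 10.4 to 62.3 CPM in the other libraries. Summed markers of B cells (235 to 669 CPM in WT, 310.3 to 385 in KO), neutrophils (254 to 749.5 and 361 to 466), T and NK cells (21.2 to 29.0 and 22.0 to 36.0), platelets (140.0 to 314 and 146 to 178), endothelium and stroma (258 to 314 and 243 to 392) and early progenitors (116 to 146 and 125 to 151) overlapped between the groups. The part of these cells in the results was not tested.

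**Figure D4:**
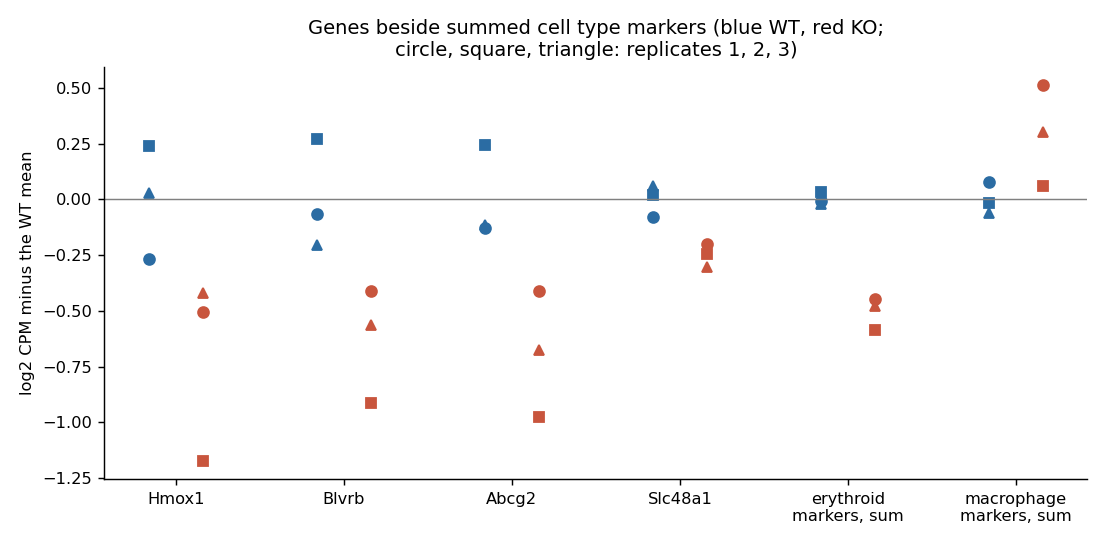
The log2 CPM minus the WT mean (y axis) of Hmox1, Blvrb, Abcg2 and Slc48a1 beside the summed erythroid and macrophage markers, for 3 WT (blue) and 3 KO (red) libraries. The erythroid sum is lower in all KO libraries, and the macrophage sum overlaps between the groups.

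Profiles over the 6 libraries were compared by the root mean square difference of centred log2 CPM, among the 8813 genes whose mean log2 CPM reached 3 or more. Blvrb and Abcg2 resembled each other closely (0.0627 log2 units), each being the fourth nearest gene to the other, and Ncoa4, the ferritinophagy receptor, was the nearest to both (0.0516 and 0.0461). The next for Blvrb were Slc3a2 and Epb4.2, and Clcn3 was among the next for Abcg2. Hmox1 and Hmox2 were farther apart (0.279), and Blvra was farther from Blvrb (0.486) than from Flvcr1 (0.140). Hmox1 was nearest to Optn, P4ha1 and Pigq (0.0599 to 0.0799). Hmox2 was nearest to Kdm6a, Fbln2 and Cbfa2t3, at a larger distance (0.134 to 0.148). Slc48a1 was nearest to Chp1, Cdkn2c and Snx15, Blvra to Ptprj, Gnai3 and Eif4e2, Flvcr1 to Tsc22d2, Pus10 and Thoc5, and Flvcr2, with few reads, to Efnb1, Fgfr3 and Gstt1 at 0.710 to 0.727. The group difference is part of each profile.

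Other genes of heme and iron handling were listed by role, and none passed the threshold by edgeR. Of 11 tested partners and regulators of the heme oxygenases, 2 were lower at an unadjusted p under 0.05 and 0 higher, beside 5.98% and 6.25% of all genes, with a median log2 change of -0.08. These were the small Maf genes Mafg (376 ± 28.8 to 301 ± 55.3 CPM, log2 -0.32, adjusted p = 0.385 by edgeR) and Mafk (log2 -0.28). Bach1 had 83.6 ± 2.96 CPM in WT and 73.8 ± 11.6 CPM in KO (adjusted p = 0.613 by edgeR), and Por, the cytochrome P450 reductase that feeds heme oxygenase, had 38.2 ± 1.66 and 42.7 ± 5.10 CPM. Of 4 tested genes of heme scavenging and uptake, only Cd163 passed an unadjusted p of 0.05 (log2 -0.51); Lrp1, the hemopexin receptor, had a log2 change of 0.22 and Hp, haptoglobin, one of 0.25.

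A mixed list of other transporters was lower on balance. It holds heme and porphyrin carriers, SLC49 relatives and carriers of other cargo, such as glycine and glutathione. Of 11 tested, 6 were lower and 1 higher at an unadjusted p under 0.05 (median log2 -0.46), beside 5.98% and 6.25% of all genes, and DESeq2 called 5, beside 2.89% of all genes. Abcb10, a mitochondrial transporter needed for hemoglobin synthesis, had 1358 ± 62.0 CPM in WT and 892 ± 165 CPM in KO (log2 -0.61, adjusted p = 0.138 by edgeR). Slc25a39, which carries glutathione into mitochondria, had a log2 change of -0.46 (adjusted p = 0.145 by edgeR) and Slc25a38, the mitochondrial glycine carrier, one of -0.56 (adjusted p = 0.177 by edgeR). Abcb8, of the mitochondrial inner membrane, was the 1 higher, at 18.4 ± 0.262 and 24.0 ± 1.25 CPM.

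A list of iron storage, chaperone and transport genes is not limited to iron released from heme. Of 7 tested, all 7 had a negative log2 change (median -0.77, beside 0.02 over all genes tested). The share of all genes with a negative change was not counted. At an unadjusted p under 0.05, 6 were lower, beside 5.98% of all genes. DESeq2 called 6, beside 2.89% of all genes. Pcbp1, an iron chaperone, had 429 ± 60.1 CPM in WT and 259.7 ± 33.0 CPM in KO (log2 -0.72, adjusted p = 0.0906 by edgeR). Ncoa4 had a log2 change of -0.70 (adjusted p = 0.114 by edgeR). Fth1, the ferritin heavy chain, had 3272 ± 653 and 1898 ± 613 CPM (log2 -0.79, adjusted p = 0.246 by edgeR).

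**Figure D5:**
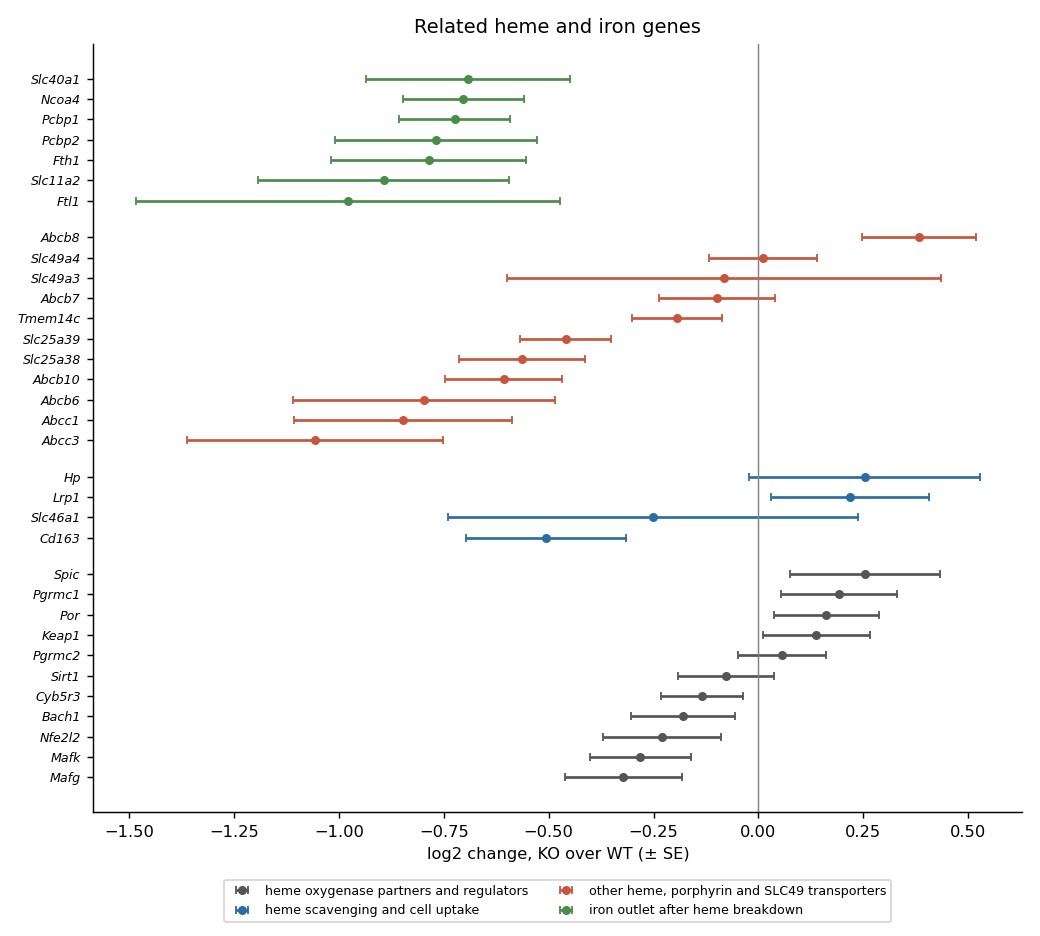
The log2 change of KO over WT with its SE (x axis) for the tested genes of 4 lists of heme and iron handling, 1 point a gene, coloured by list. All 7 iron genes and 9 of 11 transporters lie below 0.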

How the data were processed

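Total RNA of splenic Ter119+ cells was purified with a PureLink kit and made into Illumina TruSeq version 2 libraries from 1 ug, per the labels' protocols. Raw counts were deposited by the authors, 1 table with a column for each library. STAR 2.5, HTSeq, DESeq2 and mm10 stand in the submitters' processing notes without a role. Which annotation and strand setting were used is not given in the sources used here. Of 35275 lines, 27 whose names had become dates (0.340% to 0.383% of the reads) were left out, and 122 lines sharing 52 symbols were summed.

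Groups came from the sample titles. Nothing in the labels says that each library came from a separate animal, so p-values reflect only how far these libraries vary. By Xist and Y-linked transcripts, KO replicate 3 did not come from the same material as KO replicates 1 and 2. Among the WT libraries, and between KO replicates 1 and 2, the variation may be technical. The closest libraries differed by a chi-square of 23.9 per gene, above sampling noise. The test across genes was that of edgeR 4.0.16 under R 4.3.3 (filterByExpr with a minimum count of 10, TMM scaling, robust quasi-likelihood F test, no covariate), adjusted by Benjamini-Hochberg over all genes; SE is the log2 change divided by the root of F. CPM use TMM-scaled library sizes. The biological coefficient of variation was 0.223. The test was checked on simulated data. Lengths and positions are from GENCODE M21 and promoters from RefSeq, both on GRCm38, the assembly of mm10; ratios had 0.5 reads added. Alternatives were DESeq2 1.42.0, limma-voom (limma 3.58.1), other scalings, other filters, left-out libraries and a replicate block.

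The genes and lists were chosen with earlier results of these data known. Named are all 8 genes, the list genes past the threshold or up to 3 per list by p, Nfe2l2 and Nqo1, and the 3 nearest profiles of each gene. Bach1, Por, Abcb8, Cdip1, Marco, Slc4a1 and Alas2 were named after their values were seen. A few genes that the rule or the marker lists hold are not reported here.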

Additional observations from a re-analysis of the deposited data

How the results depend on the processing

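No gene of the 8 passed the threshold in edgeR with upper quartile scaling, library totals or DESeq2 size factors, limma-voom, a filter of 1 CPM in 3 libraries, without the 10 most abundant genes, without any single library or with the replicate block. Nor did any for KO replicate 3 alone, a fit in which that arm is 1 library assumed to vary like the other groups, so that its adjusted p says nothing on stability. The exceptions were DESeq2, with 3 (Hmox1, Blvrb and Abcg2), and edgeR without a filter, with 3 (Hmox2, Blvrb and Abcg2, adjusted p = 0.0309, 0.00723 and 0.00336), where 0.775% of 21680 genes were called lower; the cause was not tested. Those fits also called 5 and 3 of the other transporters and 6 and 2 of the iron genes. Over all genes the count of 3 became 10 with DESeq2 size factors, 8 with the upper quartile, 33 with library totals, 397 with DESeq2, 228 with no filter, 9 with the 1 CPM filter, 6 for KO replicate 3 alone and 0 to 14 without single libraries. It was 0 with limma-voom, with 1681 genes at an unadjusted p under 0.05, and 0 by edgeR without WT replicate 2, with 1338.

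The median of the 8 was -0.66 with limma-voom and -0.67 to -0.36 without single libraries. With library totals the median over all genes was 0.15, against 0.02, and the 8 had a median of -0.31. For KO replicate 3 alone the Flvcr1/Flvcr2 difference was -0.91, against 1.50 with all libraries, and the Hmox1/Blvrb difference 0.14 in place of -0.07. Flvcr2 ran from -1.81 to 0.32 without single libraries and reversed to 0.32 and 0.99, and Slc48a1 to 0.25 under the settings named above. Of 133 values of single genes under alternatives, 124 kept their sign and their side of the threshold. The values set against the erythroid sum are among them, and their exact p cannot fall under 0.1. Those for KO replicate 3 alone are among them too, so the count is no measure of stability. Replicate numbers do not pair the libraries by the labels. Same-numbered libraries correlated at 0.0985, 0.0438 and 0.0310 in their deviations, and KO replicate 3 was closer to WT replicate 2. With the replicate block 9 genes passed and the median was -0.66.

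Flvcr2 had few reads and widely spread KO libraries, and 3 libraries a group limit every p.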

Other observations

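The stricter antioxidant response element core TGACNNNGC, which lies within TGANNNNGC and occurs in 12.4% of all windows on either strand, was found in the windows of Blvra and Flvcr1, the only 2 of the 8 genes with a positive log2 change (0.27 and 0.30, neither past the threshold by edgeR). It was found in no window of Blvrb, Abcg2, Hmox2 or Flvcr2. Hmox1 and Slc48a1 had no window. The motif was chosen after the first search, over windows of 300 bases, and the match is a description of letters only.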
